A study of Mus musculus with 26 samples.

Results

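Adipocytes of mice returned to a low fat diet after a period of high fat feeding were compared with adipocytes of mice that had always been lean, over all genes, to describe which functions still differed after the switch. The members are 6 adipocyte libraries, chosen by the diet group in their column names: 3 of the switched group (SW) and 3 of the lean group (LFD), out of 15 libraries used here and 18 that the labels list. The labels give repeat records for some LFD adipocyte replicates but for no SW adipocyte replicate. They do not say which columns these are, and whether this sets the groups apart was not tested. All were from the epididymal fat of male C57BL/6J mice, aged 9 to 10 weeks when the diets began. LFD mice received a diet with 10% of its energy from fat for 12 weeks. SW mice received a diet with 60% fat for 9 weeks and then the 10% fat diet for 3 weeks, so that both groups ate the same diet when the tissue was taken. Adipocytes of mice kept on the 60% fat diet for 12 weeks (HFD, 3 libraries) are given beside them as levels, and since both comparisons use the same LFD libraries, their fold changes are not compared. No transgene was involved. The fat was digested with collagenase for 30 minutes, and the floating fraction was taken as adipocytes, apart from the stromal vascular cells (SVC) that sediment. The labels do not say how many mice stand behind a library, so the p-values measure the spread between these libraries.

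White adipocytes store energy as triglyceride in a large lipid droplet, build and release fatty acids under the control of insulin and catecholamines, and secrete hormones such as adiponectin and leptin. In obesity, macrophages gather around stressed and dying adipocytes, take up the lipid they release and break it down in lysosomes, organelles that are acidified by the vacuolar proton pump (V-ATPase). Capillaries, mural cells and the mesothelium that covers the epididymal pad lie next to the adipocytes, and their RNA can remain in a floated fraction.

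The values are estimated counts per gene, scaled here to CPM, the usual measure of counts relative to the library total, with TMM factors (trimmed mean of M-values), and they are listed in the order of LFD-404, LFD-405 and LFD-406 and then SW-407, SW-408 and SW-409. A log2 fold change is the SW minus the LFD group on the fitted log2 scale, with its standard error (SE). Each adjusted p was obtained with edgeR (quasi-likelihood F-test, Benjamini-Hochberg over 14461 genes), and a gene is said to have risen, fallen or been called when it was under 0.05. The LFD libraries held 6142895, 19720207 and 7510142 counts and the SW libraries 11314661, 16271834 and 13722008. Library SW-407 stood apart from the other 2 of its group: its counts differed from SW-408 and SW-409 by chi-square values of 89.5 and 80.4 per degree of freedom, while SW-408 and SW-409 differed by 12.8 and the LFD pairs by 15.9 to 35.5. Cytosolic ribosomal protein genes took 5.95% of its counts, against 3.95% and 4.03% in the other SW libraries and 2.80% to 3.91% in the LFD libraries. The transcript Gm26924 reached 56319, 5328 and 6116 CPM in the SW libraries and 16362, 1176 and 1369.7 CPM in the LFD libraries, so that it ran from low to very high within both groups and was not called (adjusted p = 0.318). Results that rest on library SW-407 are therefore also given without it. Adipocyte markers were abundant in both groups. Adipoq, which encodes adiponectin, was at 2669, 3071 and 4371 CPM in LFD and 1662, 2274 and 2298 CPM in SW libraries. The 10 adipocyte markers summed to 29835, 41959 and 48934 CPM and 26254, 27296 and 27357 CPM in the lowest, middle and highest library of each group. In the same order, 11 macrophage markers summed to 528, 909 and 997 CPM in LFD and 5543, 5993 and 7781 CPM in SW. The label adipocyte therefore names the fraction and not a pure cell type.

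After the switch, the adipocyte fraction still differed from that of lean mice in 2468 genes, 17.1% of those tested. Of these, 1574 were higher in SW (10.9% of the genes tested) and 894 were lower (6.18%). The rises were also the larger changes: their median size was 1.23 on the log2 scale and 59.9% of them exceeded 1, while the median size of the falls was 0.87 and 38.0% of them exceeded 1. For the 11993 genes that did not pass, the 95% confidence interval of the log2 fold change lay within a 2-fold difference for 8719 and within a 1.5-fold difference for 4945. In 6 fits that each left out 1 of the 6 libraries, 992 of the rises and 349 of the falls passed every time. Without library SW-407, 1379 genes were higher, 1266 of them among the 1574, and 626 were lower, 545 of them among the 894. All 3 SW libraries lay above all 3 LFD libraries in 19.1% of the genes tested and below them in 17.5%. Groups without overlap were therefore common, and where they are given below they stand beside these shares.

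How the 2 directions balance depended on the scaling. TMM factors assume that most genes do not change. When the factors were computed only over genes that are richer in HFD adipocytes than in HFD SVC, an alternative chosen after the data were seen, the median log2 fold change of all genes moved from 0.00 to 0.38, 3870 genes were higher (26.8%) and 222 lower (1.54%). Since this scaling moves fold changes up, it could remove falls but hardly rises. That all 1574 rises remained called therefore adds no support to them. All 222 falls were among the 894, so that 24.8% of the falls held under both scalings. This second scaling is called adipocyte-rich scaling below, and the falls of each list are set beside it.

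Of 67 gene lists covering cell types and functions, chosen with earlier results of these data known and described by their counts and medians, 15 had most of their members, or as many as not, called in the same direction, among lists with at least 5 members tested. The lists with the largest shares of rises held macrophage, lysosomal and innate immune genes. Those with the largest shares of falls held markers of smooth muscle, endothelium and red blood cells, Hox genes and mesothelial genes. The counts of each list below stand beside shares over all genes of 10.9% higher and 6.18% lower, and several lists lay near these.

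**Figure D1:**
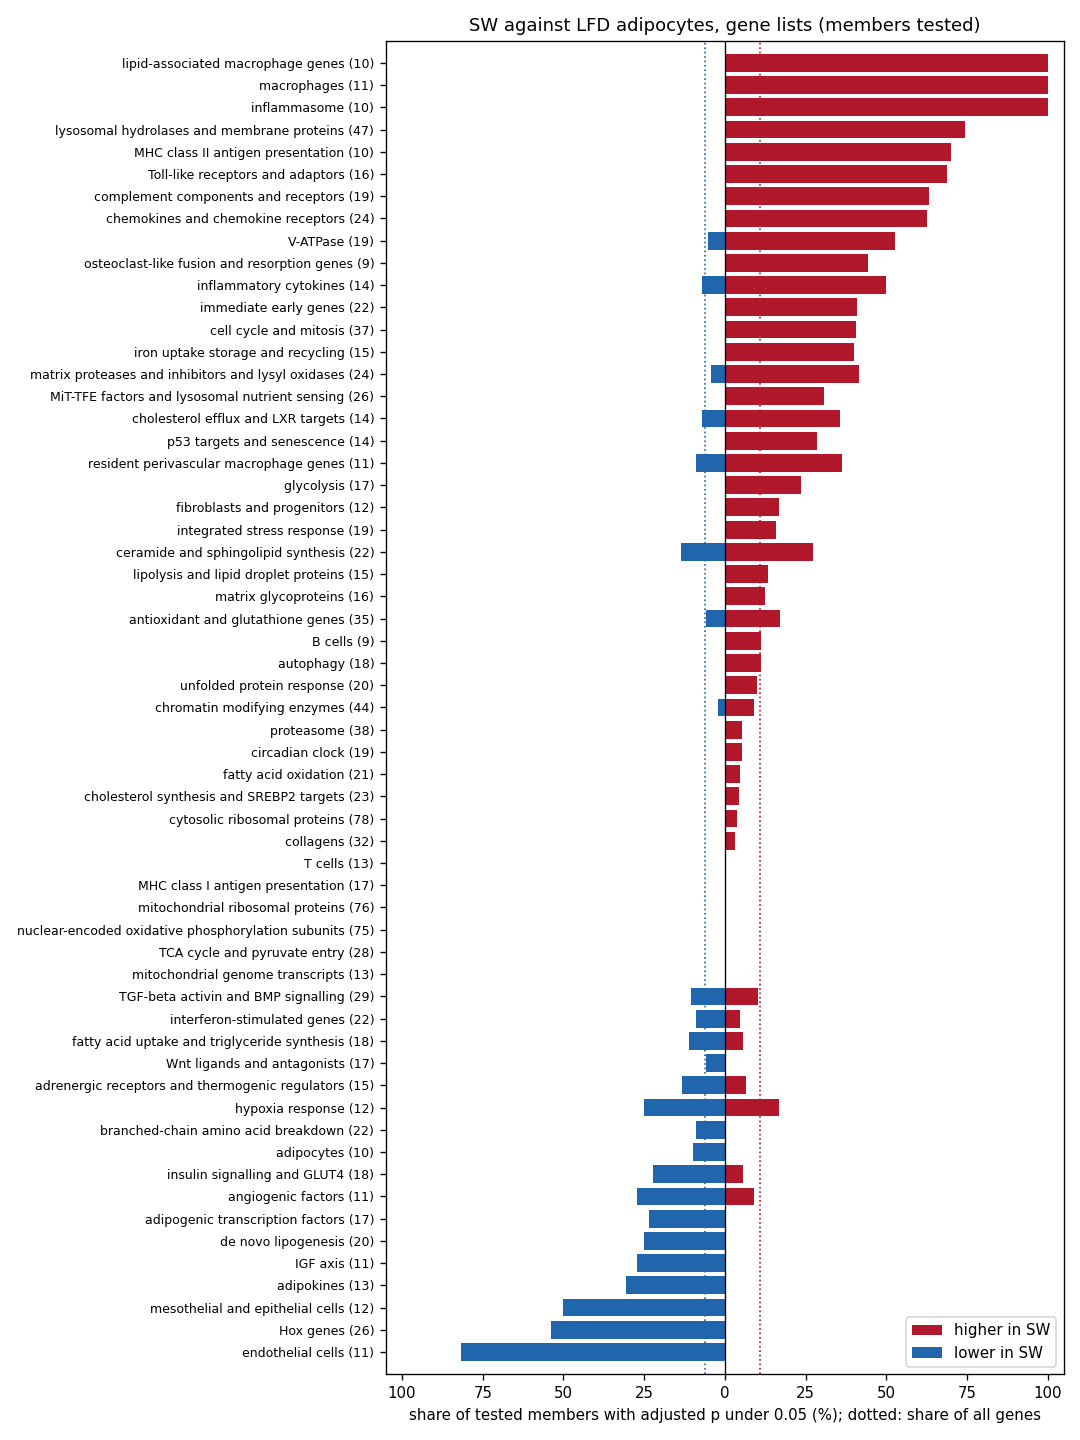
Share of tested members of each gene list with at least 9 members tested that were called higher (red, to the right) or lower (blue, to the left) in SW than in LFD adipocytes, in percent on the horizontal axis, with the number tested in parentheses and the shares over all genes as dotted lines (10.9% and 6.18%). Macrophage, lipid-associated macrophage and inflammasome genes reached 100.0%, while no member of the lists of oxidative phosphorylation or mitochondrial ribosomal proteins was called.

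The largest difference was in macrophage genes. All 11 markers of macrophages fixed as a list rose, with a median log2 fold change of 3.00 against 0.00 for all genes. Their summed level was 528, 909 and 997 CPM in the LFD libraries, in order of size, 5543, 5993 and 7781 CPM in the SW libraries and 8098, 9492 and 9665 CPM in the HFD libraries. The lowest SW library was far above the highest LFD library. None of the markers was at 0 in the LFD libraries. Emr1, which encodes the macrophage surface protein F4/80, was at 35.7, 32.8 and 25.4 CPM in LFD and 318, 298 and 289 CPM in SW. Its log2 fold change was 3.27 (SE 0.19, adjusted p = 2.66e-05), and the 3 SW libraries lay close together, between the LFD libraries and the HFD libraries at 804, 564 and 738 CPM. Cd68, a protein of macrophage endosomes, was at 56.5, 35.2 and 22.8 CPM in LFD and 681, 528 and 449.8 CPM in SW, a log2 fold change of 3.86 (SE 0.32, adjusted p = 5.77e-05). Lyz2, the lysozyme of myeloid cells, was at 519.5, 500.1 and 284 CPM in LFD and 4243, 3186 and 3011 CPM in SW and had a log2 fold change of 3.00 (SE 0.27, adjusted p = 7.36e-05). In both genes every SW library was above every LFD library, and among the LFD libraries LFD-406 was the lowest. In bulk RNA, more cells of a type and more RNA per cell cannot be told apart, and all 11 calls held in each of the 6 fits without 1 library.

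Genes of lipid-associated macrophages, a state described around lipid-laden adipocytes, rose in 10 of 10 cases with a median log2 fold change of 3.75, and all 10 held without any 1 library. Trem2, a lipid receptor of this state, was at 34.1, 19.7 and 9.63 CPM in LFD and 775, 403 and 425 CPM in SW. The log2 fold change was 4.67 (SE 0.44, adjusted p = 9.61e-05), and library SW-407 was the highest of the SW group. Gpnmb, a glycoprotein of lysosome-rich macrophages, was at 101, 39.8 and 23.2 CPM in LFD and 1241, 1320.3 and 1220.0 CPM in SW, with a SW mean of 1261 ± 52.9 CPM (SD, n = 3). The HFD libraries were higher, at 2784, 1975 and 2794 CPM, and the log2 fold change between SW and LFD was 4.54 (SE 0.48, adjusted p = 1.84e-04). Spp1, which encodes the secreted protein osteopontin, was at 3.33, 4.49 and 2.11 CPM in LFD and 113, 72.7 and 91.0 CPM in SW and its log2 fold change of 4.71 (SE 0.29, adjusted p = 2.98e-05) was among the largest. Itgax, the integrin chain known as CD11c, was at 17.9, 12.2 and 6.86 CPM in LFD and 216, 166 and 161 CPM in SW, a log2 fold change of 3.89. The elastase gene Mmp12 was at 75.5, 43.2 and 23.1 CPM in LFD and 1369.6, 1387 and 1006 CPM in SW. It rose by 4.74 (SE 0.40, adjusted p = 6.10e-05) on the log2 scale, and SW and HFD libraries overlapped, HFD being at 1324, 1029.9 and 1322 CPM.

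Markers of macrophages that reside along vessels behaved less uniformly. Of 11 members, 4 rose and 1 fell, with a median log2 fold change of 0.20. Mrc1, the mannose receptor, was at 76.6, 74.8 and 52.2 CPM in LFD and 154, 165 and 149 CPM in SW and had a log2 fold change of 1.20 (SE 0.20, adjusted p = 0.00284). Folr2, a folate receptor, was at 38.1, 36.0 and 28.2 CPM in LFD and 207, 138 and 146 CPM in SW, a log2 fold change of 2.26 (SE 0.19, adjusted p = 5.62e-05). Lyve1, a hyaluronan receptor, was at 16.2, 17.1 and 9.76 CPM in LFD and 9.78, 22.2 and 17.3 CPM in SW, and Cd163, the haemoglobin scavenger receptor, at 22.8, 26.2 and 14.4 CPM in LFD and 15.6, 24.2 and 16.5 CPM in SW. The groups overlapped for these last genes and neither was called (adjusted p = 0.68 and 0.647), with 95% intervals of the log2 fold change of -0.43 to 0.83 and -0.69 to 0.34. The fall in this list, that of Retnla, was lost without any of LFD-405, LFD-406, SW-408 or SW-409 and under adipocyte-rich scaling. Of 9 tested genes of osteoclast-like fusion and resorption 4 rose, among them Dcstamp, a fusion protein, with a log2 fold change of 3.20 (SE 0.43, adjusted p = 7.50e-04), and Tnfrsf11a, the receptor RANK, with 2.01 (SE 0.24, adjusted p = 3.98e-04).

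Among the 15 largest rises over all genes chosen by rule were further genes of myeloid and other immune cells. The rule took only genes without overlap between SW and LFD libraries, here and for the 15 largest falls. Their separation was therefore set by the choice and adds no support. Rgs1, a brake on chemokine receptor signalling, was at 10.3, 3.56 and 1.98 CPM in LFD and 180.3, 322 and 217 CPM in SW. Its log2 fold change of 5.60 (SE 0.52, adjusted p = 8.63e-05) was the largest of the 15. Clec4d, a C-type lectin receptor, was at 3.96, 3.09 and 1.19 CPM in LFD and 123, 67.0 and 45.4 CPM in SW, a log2 fold change of 4.81 (SE 0.45, adjusted p = 8.59e-05). Adam8, a surface protease, was at 18.7, 9.03 and 4.35 CPM in LFD and 189, 179 and 163 CPM in SW, a log2 fold change of 4.09. Hpgds, the prostaglandin D synthase of haematopoietic cells, was at 5.39, 2.42 and 2.11 CPM in LFD and 55.1, 54.4 and 46.3 CPM in SW, a log2 fold change of 4.07. In all of them library LFD-404 had the highest lean level, below every SW library as the rule required. The other genes of the 15 were Zranb3, Glipr1, Rnf128, Il7r and Pianp, with log2 fold changes from 3.97 (Pianp) to 4.33 (Zranb3), beside Atp6v0d2, which is described with the proton pump. Prss46, a serine protease gene, had no count in any LFD library and 27, 35 and 21 counts in the SW libraries. Its SW mean of 2.15 CPM was at least 6.29-fold above the LFD floor of 3 counts per library.

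Fewer genes were called in the other leukocyte lists, whose difference from the macrophage list was not tested. None of 13 tested T cell genes was called, although 12 fold changes were positive, with a median of 1.28, and 1 gene had a 95% interval within a 2-fold difference. Cd3g, a chain of the T cell receptor complex, was at 0.317, 1.96 and 0.527 CPM in LFD and 9.46, 4.33 and 1.57 CPM in SW (adjusted p = 0.0608). Its highest level was again in library SW-407, and the groups overlapped. Of 9 B cell genes, whose fold changes were all positive with a median of 0.84, 1 rose, Blnk, an adaptor of antigen receptor signalling, at 12.4, 9.85 and 5.41 CPM in LFD and 122, 78.3 and 79.7 CPM in SW. Of 5 neutrophil genes 1 rose, Csf3r, the G-CSF receptor, with a log2 fold change of 1.52 (SE 0.24, adjusted p = 0.00199). The neutrophil proteins S100a8 and S100a9 were not called (adjusted p = 0.291 and 0.431). The T cell count was 8 without SW-409 and 2 without LFD-405, and 3 B cell genes passed without LFD-405.

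In antigen presentation the number of calls differed by class, a difference that was not tested. Of 10 genes of MHC class II presentation 7 rose, all of them in each fit without 1 library, with a median log2 fold change of 1.70. H2-Aa, a class II chain, was at 376, 472 and 308 CPM in LFD and 2018, 1269 and 889 CPM in SW. Cd74, the invariant chain, was at 762, 874 and 525 CPM in LFD and 3470.1, 2216 and 1695 CPM in SW. Both were highest in library SW-407 and above every LFD library in all SW libraries, with log2 fold changes of 1.85 (SE 0.29, adjusted p = 0.00166) and 1.77 (SE 0.28, adjusted p = 0.00199). Ciita, the class II transactivator, was at 3.81, 2.84 and 1.71 CPM in LFD and 7.78, 8.95 and 6.44 CPM in SW and its log2 fold change was 1.48 (SE 0.25, adjusted p = 0.00308). Of 17 genes of MHC class I presentation, which nearly all cells use, none was called, and for 13 the 95% interval lay within a 2-fold difference. B2m, the class I light chain, was at 2201, 2423 and 2436 CPM in LFD and 3177, 2769 and 2282 CPM in SW (log2 fold change 0.22, SE 0.19, adjusted p = 0.467), with overlapping groups. Of the 17 class I fold changes 14 were positive, with a median of 0.31. Without SW-409, 4 class I genes passed, and 7 were higher under adipocyte-rich scaling, where 26.8% of all genes were.

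Innate sensing and signalling genes rose with the macrophage markers. All 10 inflammasome genes rose, 8 of them in every fit without 1 library. Casp1, the protease that matures interleukin-1, was at 12.4, 15 and 12.1 CPM in LFD and 75.0, 53.3 and 49.6 CPM in SW, a log2 fold change of 2.15 (SE 0.17, adjusted p = 5.42e-05). Pycard, its adaptor, was at 10.9, 12.2 and 7.78 CPM in LFD and 89.1, 40.7 and 37.8 CPM in SW, a log2 fold change of 2.41 (SE 0.33, adjusted p = 7.30e-04). For both genes the groups did not overlap, and Pycard was higher in SW-407 than in the HFD libraries, at 45.4, 52.4 and 55.1 CPM, and lower in SW-408 and SW-409. Of 16 Toll-like receptors and adaptors 11 rose, and 7 without LFD-406. Tlr13, a sensor of bacterial ribosomal RNA, was at 5.39, 4.23 and 1.45 CPM in LFD and 53.4, 51.0 and 41.6 CPM in SW (log2 fold change 3.70, SE 0.32, adjusted p = 6.89e-05), and Tlr2, which senses lipoproteins, at 5.55, 6.81 and 5.67 CPM in LFD and 20.6, 16.5 and 15.5 CPM in SW (log2 fold change 1.51, SE 0.17, adjusted p = 2.04e-04). Tlr8 was at 1.43, 0.774 and 0.264 CPM in LFD and 1.47, 8.59 and 8.51 CPM in SW, with library SW-407 barely above the highest LFD library, and its call (adjusted p = 0.0146) was lost without LFD-405, LFD-406 or SW-408. The HFD libraries held 81.6, 42.2 and 48.5 CPM of it. Myd88, the adaptor that most of these receptors share, was at 34.4, 35.5 and 33.1 CPM in LFD and 47.9, 39.8 and 38.3 CPM in SW and was not called (adjusted p = 0.119).

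Of 24 chemokines and receptors 15 rose and none fell. Cxcl2, which attracts neutrophils, was at 1.74, 0.825 and 0.396 CPM in LFD and 46.7, 78.3 and 52.4 CPM in SW. The log2 fold change was 6.00 (SE 0.59, adjusted p = 1.15e-04), against LFD levels of few counts. The SW libraries were also above the HFD libraries, which held 34.3, 24.2 and 9.30 CPM. Ccl2, the main attractant of monocytes, was at 23.2, 23.4 and 8.97 CPM in LFD and 84.9, 61.5 and 93.4 CPM in SW, a log2 fold change of 2.10 (SE 0.33, adjusted p = 0.00195). Ccl9, another attractant of myeloid cells, was at 120.2, 94.7 and 58.3 CPM in LFD and 804, 585 and 528 CPM in SW, a log2 fold change of 2.81 (SE 0.27, adjusted p = 1.09e-04). Every SW library was above every LFD library for these genes. Ccr2, the receptor of Ccl2 on incoming monocytes, was at 31.6, 32.1 and 15 CPM in LFD and 56.1, 34.4 and 22.7 CPM in SW, with overlapping groups and no call (adjusted p = 0.357). Cxcl12, made mainly by stromal cells, was at 226, 195 and 198 CPM in LFD and 157, 201 and 186 CPM in SW (adjusted p = 0.468).

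Of 14 inflammatory cytokine genes tested 7 rose and 1 fell, the fall being lost under adipocyte-rich scaling. Tnf was low in all groups, at 1.27, 1.03 and 0.527 CPM in LFD and 7.15, 5.11 and 5.29 CPM in SW, and its log2 fold change was 2.61 (SE 0.33, adjusted p = 4.75e-04). Il10, an anti-inflammatory cytokine, was at 1.27, 0.671 and 0 CPM in LFD and 7.25, 8.47 and 6.01 CPM in SW (log2 fold change 3.51, SE 0.58, adjusted p = 0.00232), and Il1rn, which blocks the interleukin-1 receptor, at 9.67, 3.20 and 1.71 CPM in LFD and 51.2, 51.1 and 32.5 CPM in SW (log2 fold change 3.32, SE 0.45, adjusted p = 7.39e-04). Pro- and anti-inflammatory members thus rose together, and none of these groups overlapped. Tgfb1 was at 51.5, 50.7 and 45.1 CPM in LFD and 109, 92.3 and 93.6 CPM in SW, a log2 fold change of 1.00 (SE 0.12, adjusted p = 4.34e-04). Il1b, at 1.11, 2.17 and 0.659 CPM in LFD and 2.73, 5.23 and 4.94 CPM in SW, was not called (adjusted p = 0.0532). Of 19 complement genes 12 rose, all of them in every fit without 1 library. C1qb, a chain of the initiating complex, was at 134, 147 and 83.6 CPM in LFD and 1384, 863 and 829 CPM in SW and had a log2 fold change of 3.08 (SE 0.27, adjusted p = 7.06e-05). C3, the central component, was at 485, 579.8 and 395 CPM in LFD and 1091, 1073 and 916 CPM in SW, a log2 fold change of 1.08 (SE 0.18, adjusted p = 0.00268). C1s and C4b, which are secreted by many cell types, were not called (adjusted p = 0.181 and 0.0672). Of 22 interferon-stimulated genes 1 rose, Oas1a, with a log2 fold change of 1.46 (SE 0.17, adjusted p = 2.84e-04). Ifi44 and Cmpk2 fell, with log2 fold changes of -1.17 and -0.66, and neither passed under adipocyte-rich scaling. This list turned on library SW-407: Isg15 was at 26.8, 31.5 and 33.5 CPM in LFD and 35.7, 15.9 and 17.7 CPM in SW and Bst2 at 199.8, 233 and 242 CPM in LFD and 273, 133 and 132 CPM in SW, so that SW-407 alone was high. Without it 6 members were lower, and 1 was lower without LFD-404, LFD-405, SW-408 or SW-409, while 3 were higher without SW-409.

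Lysosomal genes formed the second large block. Of 47 lysosomal hydrolases and membrane proteins, 35 rose and none fell, with a median log2 fold change of 0.71, and 29 of the 35 held in each fit without 1 library. Their summed level was 11431, 12082 and 12967 CPM in the LFD, 25847, 26294 and 34495 CPM in the SW and 32583, 36059.6 and 37725 CPM in the HFD libraries, in order of size. Lipa, the acid lipase that frees cholesterol and fatty acids from esters, was at 83.9, 51.8 and 42.3 CPM in LFD and 375, 453 and 389.7 CPM in SW. It rose by 2.78 (SE 0.26, adjusted p = 8.59e-05) on the log2 scale, and the SW libraries lay below the HFD libraries at 1012, 758 and 992 CPM. Ctss, a cathepsin of antigen-presenting cells, was at 145, 104 and 59.2 CPM in LFD and 1428, 1159 and 893 CPM in SW, a log2 fold change of 3.50 (SE 0.32, adjusted p = 8.59e-05). Ctsk, a collagen-degrading cathepsin, was at 45.8, 44.3 and 26.8 CPM in LFD and 397, 256 and 252 CPM in SW, a log2 fold change of 2.95 (SE 0.27, adjusted p = 7.83e-05). The SW libraries of both were well above the LFD libraries, and their range overlapped that of the HFD libraries. Ctsd, a general aspartic protease and one of the most abundant members, was at 2170.0, 1989 and 1820.2 CPM in LFD and 6744, 4016 and 4273 CPM in SW, a log2 fold change of 1.33 (SE 0.23, adjusted p = 0.00306). Lamp1, a structural membrane protein, changed least among these, at 682, 600.3 and 596 CPM in LFD and 918, 917 and 981 CPM in SW (log2 fold change 0.58, SE 0.14, adjusted p = 0.0171), and lost its call without LFD-405, LFD-406 or SW-409. Gm2a and Npc2, which bind glycolipids and cholesterol in the lumen, were not called (adjusted p = 0.272 and 0.306). In HFD mice the median lysosomal gene was lower in adipocytes than in SVC by 0.41 on the log2 scale, and the macrophage marker sum rose between the same groups as the lysosomal sum; the part of macrophages in the lysosomal rise was not tested.

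The V-ATPase pumps protons into the lysosome through a membrane part (V0) driven by an ATP-splitting part (V1). Of its 19 genes 10 rose and 1 fell, with a median log2 fold change of 0.48. Atp6v0d2, the form of the d subunit found in osteoclasts and macrophages, was at 16.0, 7.63 and 4.22 CPM in LFD and 242, 234 and 199 CPM in SW. It stood out among the subunits, with a log2 fold change of 4.64 (SE 0.38, adjusted p = 5.62e-05). Atp6v1b2, the widely expressed B subunit, was at 189, 165 and 158 CPM in LFD and 469, 404 and 409 CPM in SW, a log2 fold change of 1.33 (SE 0.15, adjusted p = 2.22e-04). Atp6v1a, the catalytic subunit, was at 109, 84.1 and 80.8 CPM in LFD and 239, 251 and 229 CPM in SW and Atp6v0a1, a subunit of the proton channel, at 146, 133 and 114 CPM in LFD and 299, 254 and 272 CPM in SW. Their log2 fold changes were 1.39 (SE 0.16, adjusted p = 2.49e-04) and 1.07 (SE 0.14, adjusted p = 6.16e-04), without overlap between the groups. Atp6v1e1 and Atp6ap1 were not called (adjusted p = 0.149 and 0.142). The fall, that of Atp6v0e2, passed neither under adipocyte-rich scaling nor without any of LFD-405, LFD-406, SW-407 or SW-408; this gene, Retnla above and Lgmn, Cln3 and Atp6v0b below were named after their values were seen.

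Lysosomal and V-ATPase genes share a promoter element, the CLEAR box, which is bound by the transcription factors TFEB, TFE3 and MITF. Its core TCACGTG was searched on both strands in the 250 bases before each start (RefSeq promoters, GRCm38.p6, a build newer than the mm9 of the counts). It was found in 12 of 38 lysosomal genes with a promoter in the table (31.6%), 2 of 13 V-ATPase genes (15.4%) and 968 of all 27025 genes (3.58%). Among lysosomal genes it stood before 8 of 26 that were called (30.8%) and 4 of 12 that were not (33.3%). Both V-ATPase genes with it were called. The promoters of the called members with the lowest adjusted p that hold the core are shown to let the element be seen in place, with the core and its overlapping reverse match in capitals. Gla encodes a galactosidase, Lgmn a cysteine protease, Cln3 a lysosomal membrane protein, Atp6v1a and Atp6v0b subunits of the pump. The intervals are chrX:134601006-134601255 for Gla, chr12:102439093-102439342 for Lgmn, chr7:126583237-126583486 for Cln3, chr16:44139260-44139509 for Atp6v1a and chr4:117887330-117887579 for Atp6v0b, all on the minus strand and printed 5′ to 3′ toward the gene.
Gla: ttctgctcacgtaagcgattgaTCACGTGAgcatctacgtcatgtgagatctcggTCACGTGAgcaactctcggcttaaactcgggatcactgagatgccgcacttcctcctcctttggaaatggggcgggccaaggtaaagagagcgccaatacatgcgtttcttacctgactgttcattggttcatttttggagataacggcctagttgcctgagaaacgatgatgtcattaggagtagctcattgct
Lgmn: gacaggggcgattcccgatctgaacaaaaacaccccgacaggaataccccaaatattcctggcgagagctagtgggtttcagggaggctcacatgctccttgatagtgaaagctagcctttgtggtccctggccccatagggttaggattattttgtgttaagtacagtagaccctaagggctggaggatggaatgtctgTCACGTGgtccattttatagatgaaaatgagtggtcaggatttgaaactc
Cln3: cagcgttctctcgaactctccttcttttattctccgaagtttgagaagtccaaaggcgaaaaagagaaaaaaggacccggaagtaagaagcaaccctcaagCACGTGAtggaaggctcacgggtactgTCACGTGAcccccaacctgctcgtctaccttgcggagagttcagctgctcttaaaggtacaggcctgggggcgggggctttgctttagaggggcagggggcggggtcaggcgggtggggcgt
Atp6v1a: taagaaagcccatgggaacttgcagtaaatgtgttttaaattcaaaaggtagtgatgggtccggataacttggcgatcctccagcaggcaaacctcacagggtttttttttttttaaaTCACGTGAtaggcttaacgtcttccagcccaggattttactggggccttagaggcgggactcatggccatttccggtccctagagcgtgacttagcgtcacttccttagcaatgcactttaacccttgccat
Atp6v0b: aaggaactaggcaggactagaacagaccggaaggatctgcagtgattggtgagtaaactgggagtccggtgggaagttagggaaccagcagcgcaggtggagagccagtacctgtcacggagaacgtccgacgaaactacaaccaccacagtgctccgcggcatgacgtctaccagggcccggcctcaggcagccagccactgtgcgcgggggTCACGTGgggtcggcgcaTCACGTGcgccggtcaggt

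Beside these sequences, Gla was at 10.6, 7.99 and 6.46 CPM in LFD and 53.9, 43.2 and 39.3 CPM in SW, a log2 fold change of 2.45 (SE 0.19, adjusted p = 5.37e-05). Lgmn rose by 2.48 (SE 0.24), Cln3 by 1.40 (SE 0.14) and Atp6v0b by 0.87 (SE 0.19) on the log2 scale, each with all SW libraries above all LFD libraries. Gla and Cln3 hold 2 separate matches in this window, as does Atp6v0b, and Lgmn and Atp6v1a hold 1. The factors themselves and their regulators rose in 8 of 26 cases. Mitf was at 12.2, 8.10 and 8.17 CPM in LFD and 23.3, 29.4 and 22.7 CPM in SW, a log2 fold change of 1.44 (SE 0.22, adjusted p = 0.00147). Tfec, a relative found mainly in macrophages, was at 1.11, 0.671 and 0.396 CPM in LFD and 8.31, 5.29 and 3.86 CPM in SW, a log2 fold change of 3.02 (SE 0.38, adjusted p = 5.11e-04). Rragd, a GTPase of lysosomal nutrient sensing, was at 0.159, 0.516 and 0.527 CPM in LFD and 3.47, 3.30 and 4.44 CPM in SW, a log2 fold change of 3.07 (SE 0.37, adjusted p = 4.15e-04). No group overlapped in these genes, although the LFD values of Tfec and Rragd are those of few counts. Tfeb was at 18.7, 22 and 16.7 CPM in LFD and 44.4, 28.5 and 26.6 CPM in SW, a smaller log2 fold change of 0.78 (SE 0.20, adjusted p = 0.0225) that did not hold without LFD-404 or LFD-406. Of 18 autophagy genes 2 rose (11.1%), about the 10.9% of all genes that rose. They were Sqstm1, the cargo receptor p62, with a log2 fold change of 0.64 (SE 0.14, adjusted p = 0.0112), and Gabarap, with 0.72 (SE 0.21, adjusted p = 0.038). Each was lost without at least 1 library, Sqstm1 only without LFD-405. Map1lc3b, the autophagosome protein LC3B, was at 241, 239.9 and 278 CPM in LFD and 255, 261 and 252 CPM in SW and was not called (95% interval -0.25 to 0.29).

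**Figure D2:**
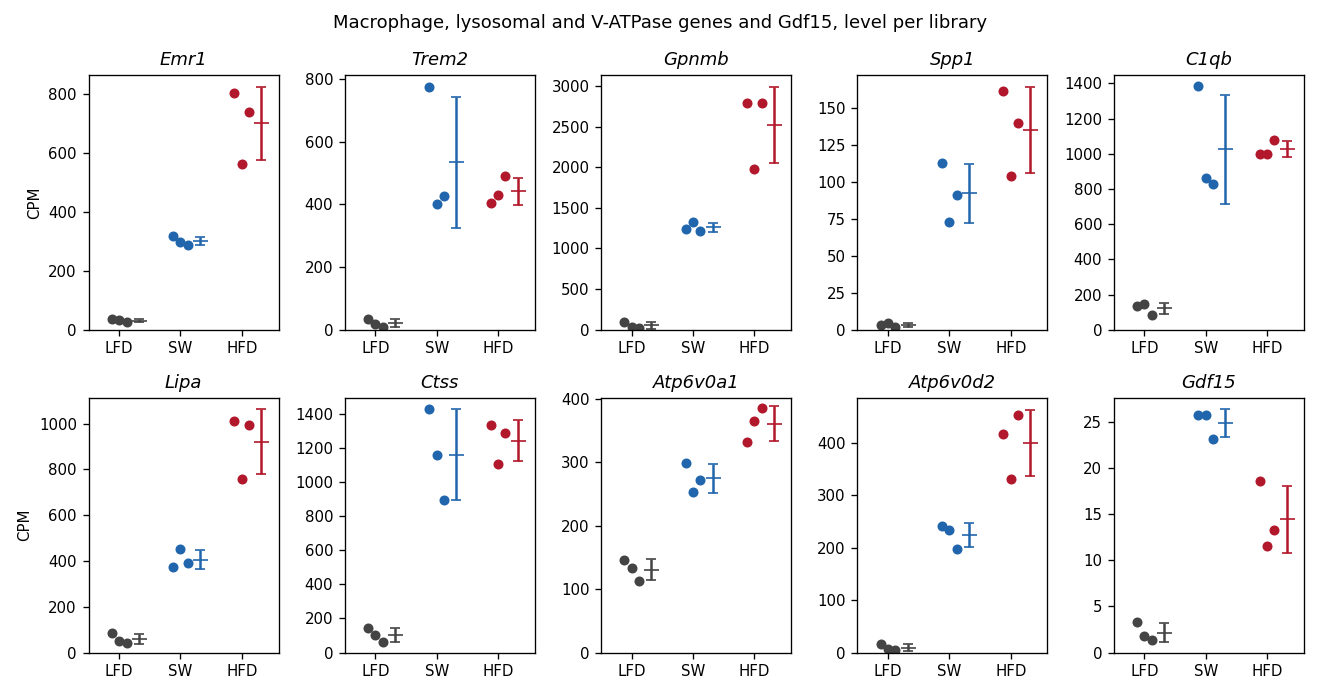
Level in CPM on the vertical axis for macrophage genes (Emr1, Trem2, Gpnmb, Spp1, C1qb), lysosomal and V-ATPase genes (Lipa, Ctss, Atp6v0a1, Atp6v0d2) and Gdf15, with 1 point per library and the mean ± SD (n = 3) beside each group of LFD, SW and HFD adipocytes. In all 10 genes the SW points lie above the LFD points; for Emr1 and Gpnmb they lie between LFD and HFD, and for Gdf15 above HFD.

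Handling of sterols and iron followed the same direction in part. Of 14 genes of cholesterol efflux and LXR targets 5 rose and 1 fell, and all 6 held in each fit without 1 library. The fall also passed under adipocyte-rich scaling. Abcg1, a cholesterol exporter, was at 38.9, 36.1 and 35.1 CPM in LFD and 108, 91.5 and 72.9 CPM in SW, a log2 fold change of 1.31 (SE 0.16, adjusted p = 3.50e-04). Soat1, which esterifies cholesterol for storage, was at 19.3, 11.1 and 7.12 CPM in LFD and 94.8, 80.1 and 71.9 CPM in SW, a log2 fold change of 2.74 (SE 0.29, adjusted p = 1.87e-04). Pltp, the phospholipid transfer protein, was at 229.8, 244 and 171 CPM in LFD and 951, 827 and 867 CPM in SW, a log2 fold change of 2.04 (SE 0.18, adjusted p = 6.75e-05). The SW libraries of all of these were above the LFD libraries, and for Pltp all were below the HFD libraries at 1063, 1128 and 1242 CPM. Apoe, the most abundant member, was at 2778, 4143 and 4232 CPM in LFD and 4728, 3731 and 3844 CPM in SW, with overlapping groups and no call (adjusted p = 0.688), and Abca1 was not called either (adjusted p = 0.255). Among 23 tested genes of cholesterol synthesis, the 95% interval lay within a 2-fold difference for 20. Of 15 iron genes 6 rose. The ferritin chains Fth1 and Ftl1, which store iron, were at 1599.6, 1840.4 and 1861 CPM in LFD and 5289.9, 4059 and 3554 CPM in SW and at 1852, 2238 and 2092 CPM in LFD and 8449, 4874 and 5237 CPM in SW. Their log2 fold changes were 1.28 (SE 0.19, adjusted p = 0.00147) and 1.59 (SE 0.25, adjusted p = 0.00187), with every SW library above every LFD library and library SW-407 the highest. Hmox1, which opens the haem ring, was at 58.5, 58.9 and 37.6 CPM in LFD and 272, 232 and 199.5 CPM in SW, a log2 fold change of 2.18 (SE 0.21, adjusted p = 1.01e-04), and Slc11a1, a metal transporter of phagosomes, had a log2 fold change of 2.67 (SE 0.24, adjusted p = 7.07e-05). Tfrc and Trf, the transferrin receptor and transferrin, were not called (adjusted p = 0.83 and 0.0728).

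Among 35 antioxidant and glutathione genes 6 rose and 2 fell (22.9% called, against 17.1% of all genes). Only 4 rose without LFD-404, LFD-405, LFD-406 or SW-407. Prdx1, a peroxiredoxin, was at 653, 723 and 765 CPM in LFD and 2775, 1896 and 1532 CPM in SW, a log2 fold change of 1.53 (SE 0.22, adjusted p = 0.00112). Srxn1, which repairs peroxiredoxins, was at 37.3, 34.3 and 29.5 CPM in LFD and 112, 105 and 92.3 CPM in SW, a log2 fold change of 1.61 (SE 0.13, adjusted p = 5.42e-05). Both were above the LFD libraries in every SW library. The glutathione transferases Gsta3 and Gsta4 went the other way, Gsta3 being at 124, 133 and 141 CPM in LFD and 51.4, 70.6 and 52.4 CPM in SW (log2 fold change -1.19, SE 0.21, adjusted p = 0.00381) and Gsta4 at 69.5, 33.2 and 143 CPM in LFD and 13.1, 14.8 and 19.7 CPM in SW (log2 fold change -2.35, SE 0.43, adjusted p = 0.00423). Both falls passed under adipocyte-rich scaling, with log2 fold changes of -0.81 and -1.97. Of 22 sphingolipid genes 6 rose and 3 fell. Asah1, the acid ceramidase of the lysosome, was at 72.5, 56.3 and 61.0 CPM in LFD and 118, 161 and 139 CPM in SW, a log2 fold change of 1.14 (SE 0.16, adjusted p = 9.86e-04), and Cers6, a ceramide synthase, at 16.0, 15.1 and 14.8 CPM in LFD and 32.5, 30.8 and 25.1 CPM in SW, a log2 fold change of 0.94 (SE 0.16, adjusted p = 0.00258). None of the 3 falls passed under adipocyte-rich scaling, and only 1 did without LFD-405, LFD-406, SW-407 or SW-409.

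Among genes of adipocyte function, with factors over all genes, most calls were falls. Of 10 adipocyte markers 1 fell, Aqp7, the glycerol channel, at 174, 182 and 229.7 CPM in LFD and 113, 135 and 131 CPM in SW. It fell with a log2 fold change of -0.63 (SE 0.13, adjusted p = 0.00999), which was -0.24 and not called under adipocyte-rich scaling. The other 9 were not called, although all 10 fold changes were negative, with a median of -0.57 and of -0.19 under adipocyte-rich scaling. Without LFD-404 or without SW-409, 2 of the 10 were called.

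Of 13 adipokine genes tested 4 fell and none rose. Retn, which encodes resistin, was at 1703, 2039 and 2348 CPM in LFD and 963, 762 and 833 CPM in SW. The log2 fold change was -1.25 (SE 0.27, adjusted p = 0.00996), and -0.86 under adipocyte-rich scaling (adjusted p = 0.0308). Rbp4, the retinol carrier, was at 758, 796 and 855 CPM in LFD and 308, 267 and 344 CPM in SW, with log2 fold changes of -1.39 (SE 0.26, adjusted p = 0.00456) and, under adipocyte-rich scaling, -1.01. Apln, the peptide hormone apelin, was at 46.5, 54.5 and 31.6 CPM in LFD and 16.2, 10.8 and 15.2 CPM in SW, a log2 fold change of -1.67 (SE 0.22, adjusted p = 5.67e-04) and, under adipocyte-rich scaling, -1.28. In these genes every SW library was below every LFD library, and the HFD libraries were lower still for Retn and Rbp4, at 195, 338 and 163 and 105, 213 and 112 CPM. Agt, angiotensinogen, was at 93.9, 121 and 187 CPM in LFD and 44.6, 74.4 and 61.3 CPM in SW and its call (adjusted p = 0.0253, and 0.0431 under adipocyte-rich scaling) was lost without LFD-405, LFD-406, SW-407 or SW-409. The main hormones did not pass. Adipoq had a log2 fold change of -0.70 (SE 0.29, adjusted p = 0.127), with all SW libraries below all LFD libraries. Lep, leptin, was at 1713, 1649 and 1023 CPM in LFD and 1329.8, 855 and 1569 CPM in SW, with overlapping groups and a 95% interval of -0.98 to 0.53. Cfd, adipsin, was at 2716, 5995 and 10846 CPM in LFD and 2154, 2916 and 1975 CPM in SW. Its LFD libraries spanned a wide range and its log2 fold change was -1.47 (SE 0.46, adjusted p = 0.0526).

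Of 20 genes of fatty acid synthesis from carbohydrate 5 fell and none rose, with a median log2 fold change of -0.57, or -0.18 under adipocyte-rich scaling, where 2 were lower and 1 higher. Scd1, the desaturase, was at 25723, 22599 and 23214 CPM in LFD and 8586, 12423 and 11830.1 CPM in SW. Each SW library was below each LFD library, and the log2 fold change was -1.12 (SE 0.28, adjusted p = 0.0191); it was -0.75 under adipocyte-rich scaling (adjusted p = 0.0432), and the call was lost without LFD-404. Pnpla3, a lipase strongly induced by carbohydrate feeding, was at 433, 421 and 439 CPM in LFD and 180.3, 136 and 211 CPM in SW, a log2 fold change of -1.29 (SE 0.29, adjusted p = 0.0125), and passed under adipocyte-rich scaling with -0.91. Fasn, the fatty acid synthase, was at 2409, 1799 and 1884 CPM in LFD and 1281, 1396 and 1457 CPM in SW, and Acly, which supplies its acetyl-CoA, at 338, 252 and 213 CPM in LFD and 245, 339 and 289 CPM in SW. Neither was called (adjusted p = 0.248 and 0.724). For Fasn no SW library reached an LFD library, as in 17.5% of all genes. Thrsp, at 1243, 1326 and 1339 CPM in LFD and 738, 597 and 756 CPM in SW, missed the threshold narrowly (adjusted p = 0.051). The count of 5 fell to 3 without LFD-404, SW-407 or SW-409 and to 2 without LFD-406. A sterol element, TCACNCCAC, was found on either strand before 1 of 16 genes of this list with a promoter (6.25%) and before 331 of 27025 genes (1.22%).

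Of 18 genes of fatty acid uptake and triglyceride synthesis 3 were called (16.7%, against 17.1% of all genes), 1 higher and 2 lower, of which 1 was lower under adipocyte-rich scaling. Mogat1, an acyltransferase, was at 25.1, 28.1 and 37.0 CPM in LFD and 11.4, 11.2 and 13.3 CPM in SW, a log2 fold change of -1.33 (SE 0.26, adjusted p = 0.00573), and passed under adipocyte-rich scaling with -0.95. Lpl, the lipoprotein lipase, was at 8586, 8875 and 9237 CPM in LFD and 7519, 6248 and 7004 CPM in SW, and Fabp4, the fatty acid carrier of adipocytes, at 18294, 26825 and 25832 CPM in LFD and 19634, 17025 and 16202 CPM in SW. Neither was called, with 95% intervals of the log2 fold change of -0.76 to 0.03 and -0.95 to 0.10. Fabp5, the carrier that macrophages also use, was at 427, 397 and 399 CPM in LFD and 727, 537 and 566 CPM in SW, a log2 fold change of 0.58 (SE 0.16, adjusted p = 0.0286) that was lost without LFD-404, LFD-405, LFD-406 or SW-407. Of 15 genes of lipolysis and lipid droplets 2 rose and none fell, while 1 was lower without SW-407. Plin2, the droplet coat found in most cells, was at 629, 500.0 and 510.1 CPM in LFD and 1496, 1258 and 1250.2 CPM in SW. It rose by 1.29 (SE 0.17, adjusted p = 6.33e-04) on the log2 scale, and the SW libraries lay between the LFD libraries and the HFD libraries at 1807, 2022 and 2116 CPM. Hilpda, an inhibitor of lipolysis, was at 30.3, 23.9 and 23.7 CPM in LFD and 48.5, 49.7 and 42.1 CPM in SW, a log2 fold change of 0.85 (SE 0.14, adjusted p = 0.00266). The droplet coats of adipocytes, Plin1 and Cidec, and the lipases Pnpla2 and Lipe were not called, with adjusted p of 0.495, 0.214, 0.651 and 0.339. All 4 were lowest in SW-407 among the SW libraries, Plin1 being at 422, 389 and 539 CPM in LFD and 233, 364 and 479 CPM in SW.

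Insulin signalling held 1 rise and 4 falls among 18 genes, with a median log2 fold change of -0.22 that was 0.14 under adipocyte-rich scaling. Ptpn1, the phosphatase that switches the insulin receptor off, was at 38.5, 39.0 and 35.5 CPM in LFD and 69.2, 62.4 and 56.2 CPM in SW, a log2 fold change of 0.73 (SE 0.12, adjusted p = 0.0019). Foxo1, a transcription factor restrained by insulin, was at 88.6, 92.2 and 87.0 CPM in LFD and 44.6, 54.2 and 53 CPM in SW. It fell with a log2 fold change of -0.82 (SE 0.11, adjusted p = 5.85e-04) and was the only fall of this list to pass under adipocyte-rich scaling, with -0.44 (adjusted p = 0.0378). Pik3r1, the regulatory subunit of PI3-kinase, and Grb10, an adaptor that dampens the receptor, had log2 fold changes of -0.71 (SE 0.14, adjusted p = 0.00667) and -0.71 (SE 0.11, adjusted p = 0.00179), and -0.34 and -0.34 under adipocyte-rich scaling. Insr, the receptor, was at 83.9, 70.0 and 86.1 CPM in LFD and 41.5, 62.2 and 61.0 CPM in SW; its call (adjusted p = 0.04995) held only in the fit without SW-408 among the 6 that left out a library. Slc2a4, the glucose transporter GLUT4, was at 121, 116 and 139.8 CPM in LFD and 57.4, 81.5 and 96.3 CPM in SW, below the LFD range in every SW library but not called (log2 fold change -0.68, SE 0.22, adjusted p = 0.0599). Irs1 was not called either (adjusted p = 0.372).

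Of 17 tested adipogenic transcription factors 4 fell, and the median log2 fold change was -0.29, or 0.09 under adipocyte-rich scaling. Pparg, the master regulator of fat cell differentiation, was at 198, 219 and 245 CPM in LFD and 114, 148 and 153 CPM in SW. The log2 fold change was -0.67 (SE 0.16, adjusted p = 0.0147), but -0.30 under adipocyte-rich scaling (adjusted p = 0.157), and it was lost without LFD-406. Gata2, which restrains differentiation, was at 26.6, 23.8 and 28.1 CPM in LFD and 11.8, 9.79 and 13.3 CPM in SW and passed under both scalings, with -1.17 (SE 0.23, adjusted p = 0.00606) and -0.79. Klf15 and Rxra had log2 fold changes of -0.69 and -0.51 and did not pass under adipocyte-rich scaling. Without LFD-406 only 2 members of the list were called. Cebpa was at 408, 403 and 459 CPM in LFD and 296, 366 and 429 CPM in SW, with overlapping groups (adjusted p = 0.483). Among caveolar genes Pacsin3 was at 33.0, 36.4 and 43.5 CPM in LFD and 15.6, 14.8 and 14.7 CPM in SW, with log2 fold changes of -1.32 (SE 0.13, adjusted p = 1.07e-04) and, under adipocyte-rich scaling, -0.94, while Cav1, at 2836, 2642 and 2612 CPM in LFD and 1362, 1699.8 and 2074 CPM in SW, was not called (adjusted p = 0.0538). Of 7 caveolar genes 2 fell, and 1 under adipocyte-rich scaling or without LFD-405, LFD-406 or SW-408. Of 15 adrenergic and thermogenic genes 1 rose and 2 fell, 1 of the falls passing under adipocyte-rich scaling. Adra2a, the receptor by which catecholamines restrain lipolysis, was at 4.28, 4.59 and 3.69 CPM in LFD and 1.37, 1.26 and 1.00 CPM in SW, a log2 fold change of -1.80 (SE 0.35, adjusted p = 0.00624), and passed under adipocyte-rich scaling with -1.42. Adcy3, an adenylyl cyclase, was at 17.3, 13.9 and 15.3 CPM in LFD and 23.2, 41.2 and 41.1 CPM in SW, a log2 fold change of 1.20 (SE 0.24, adjusted p = 0.00652). Adrb3, the main lipolytic receptor of mouse adipocytes, was at 329, 397 and 628 CPM in LFD and 159, 256 and 244 CPM in SW, below the LFD range in all SW libraries but not called (adjusted p = 0.0673). Cyp2e1, an oxidase, showed one of the largest falls of an abundant gene, at 1507, 1589.9 and 2078 CPM in LFD and 204, 584 and 434 CPM in SW. The log2 fold change of -2.08 (SE 0.49, adjusted p = 0.0165), or -1.73 under adipocyte-rich scaling, was lost without LFD-406.

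**Figure D3:**
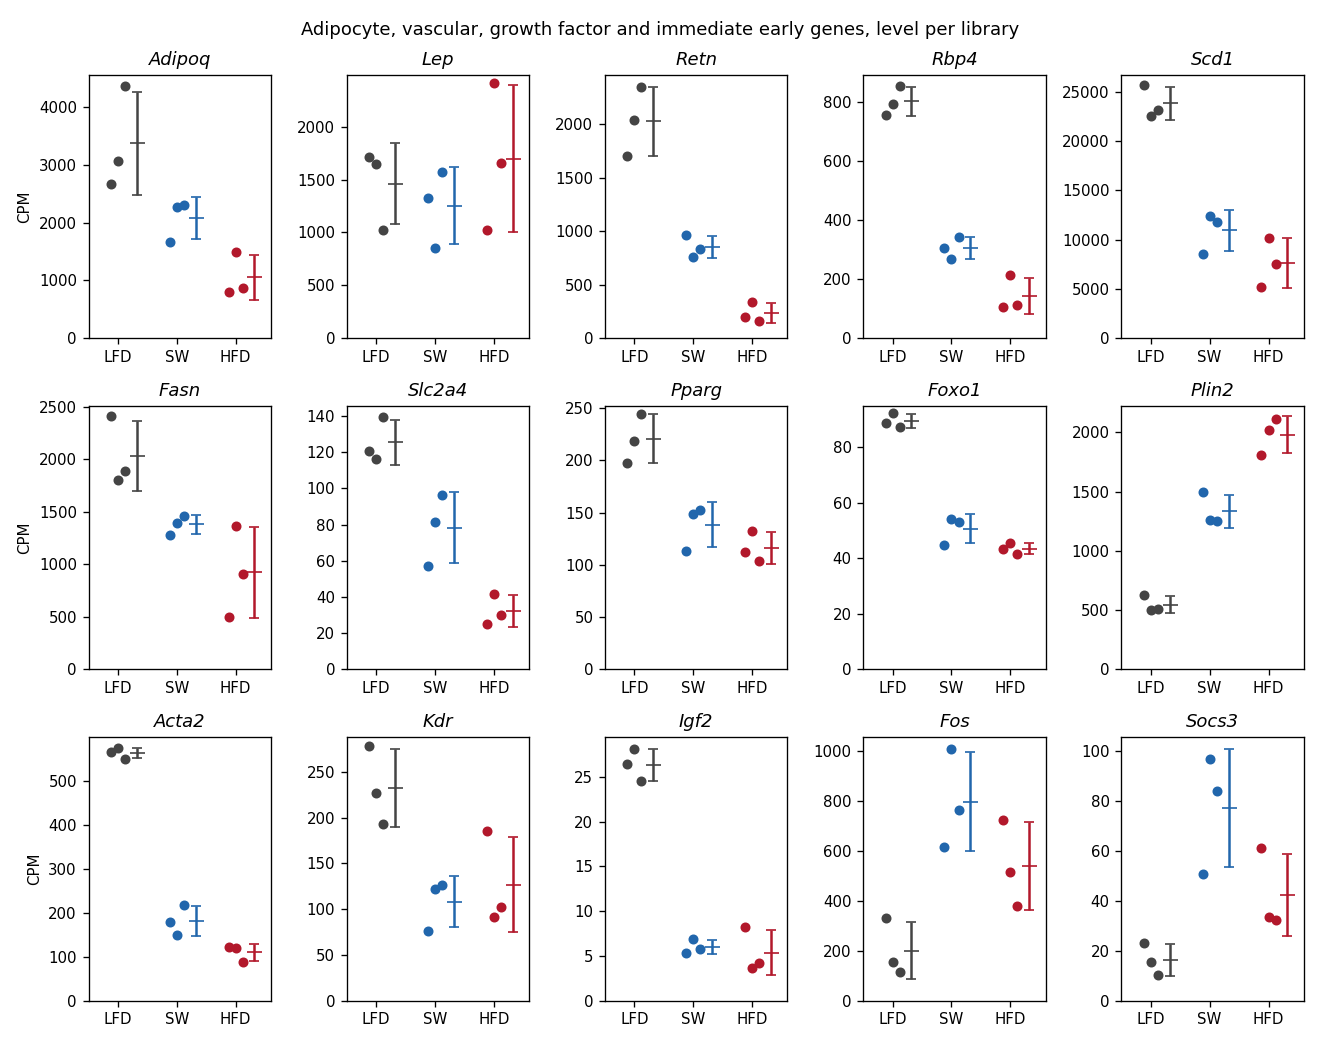
Level in CPM on the vertical axis for adipocyte genes, mural and endothelial genes (Acta2, Kdr), Igf2 and immediate early genes (Fos, Socs3), with 1 point per library and the mean ± SD (n = 3) beside each group of LFD, SW and HFD adipocytes. Retn, Rbp4, Scd1, Foxo1, Acta2 and Igf2 show SW points below all LFD points, Plin2, Fos and Socs3 show them above, and the points of Lep overlap.

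Mitochondrial and respiratory genes were not called as groups. Of 75 tested nuclear-encoded subunits of oxidative phosphorylation none passed, with a median log2 fold change of -0.05, and for 72 the 95% interval lay within a 2-fold difference. Cox4i1, a subunit of cytochrome oxidase, was at 604, 787 and 875 CPM in LFD and 1014, 641 and 696 CPM in SW, with overlapping groups, and Atp5b, of the ATP synthase, at 1205, 1130.1 and 1413 CPM in LFD and 1010.0, 1145 and 1215 CPM in SW. Under adipocyte-rich scaling 3 of the 75 were higher and the median was 0.35. None of 76 mitochondrial ribosomal proteins, 28 genes of the citric acid cycle or 13 transcripts of the mitochondrial genome passed. The 95% interval lay within a 2-fold difference for 76, 25 and 10 of them, and without SW-407 1 mitochondrial ribosomal protein and 1 gene of the citric acid cycle passed. Under adipocyte-rich scaling 12 mitochondrial ribosomal proteins were higher. For mt-Co1 the levels were 31484, 33879 and 25470.5 CPM in LFD and 28267, 28855 and 25169.5 CPM in SW. In fatty acid oxidation 1 of 21 genes rose, Cpt1a, the entry step into mitochondria, at 78.2, 62.0 and 57.8 CPM in LFD and 90.9, 100.1 and 83.8 CPM in SW, and its call (adjusted p = 0.0402) was lost without LFD-405, LFD-406, SW-407 or SW-408. Among 22 genes of branched-chain amino acid breakdown 2 fell, Ivd and Acadsb, with log2 fold changes of -0.66 and -0.69; neither passed under adipocyte-rich scaling, and both were lost without LFD-406. Of 17 glycolytic genes 4 rose, and 1 or 2 in each fit without 1 library. Pkm, a pyruvate kinase, was at 441, 398 and 399 CPM in LFD and 799, 706 and 704 CPM in SW, a log2 fold change of 0.84 (SE 0.14, adjusted p = 0.00268), and was the only one to hold without any 1 library, whereas Gapdh was at 1165, 1124 and 1183 CPM in LFD and 1525, 1374 and 1275 CPM in SW (adjusted p = 0.274).

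Protein synthesis genes showed the influence of library SW-407 and of scaling. Of 78 tested cytosolic ribosomal proteins 3 rose, and the fold change of all 78 was positive, with a median of 0.49. Rplp1 was at 824, 1362 and 1296 CPM in LFD and 2580.4, 1045 and 1182 CPM in SW, and Rpsa at 867, 1208 and 1202 CPM in LFD and 2356, 1232 and 1285 CPM in SW. Library SW-407 was by far the highest in both, and for Rplp1 the other SW libraries lay inside the LFD range. Without SW-407 the median of the list was 0.17 and none was called, as also without LFD-404 or LFD-405, while 7 were called without SW-409. Under adipocyte-rich scaling 51 were higher. Of 38 proteasome genes 2 rose, none without LFD-404, LFD-405, LFD-406 or SW-407, and 28 were higher under adipocyte-rich scaling. In the unfolded protein response 2 of 20 rose (10%), about the 10.9% of all genes that rose. Among them was Sdf2l1, a chaperone partner, at 11.7, 10.1 and 7.78 CPM in LFD and 45.7, 20.6 and 27.9 CPM in SW (log2 fold change 1.66, SE 0.27, adjusted p = 0.00235), while Hspa5, the central chaperone, was at 573, 446 and 436 CPM in LFD and 647, 520.2 and 617 CPM in SW and was not called (adjusted p = 0.291).

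In the integrated stress response 3 of 19 genes rose (15.8%, against 10.9% of all genes). Gdf15, a stress hormone that acts on the brainstem to lower appetite, was at 3.33, 1.81 and 1.32 CPM in LFD and 25.8, 25.7 and 23.1 CPM in SW. The 3 SW libraries lay close together, far above the LFD libraries and above the HFD libraries at 18.6, 11.5 and 13.2 CPM, and the log2 fold change was 3.60 (SE 0.28, adjusted p = 5.42e-05). Atf3, a stress-induced transcription factor, was at 27.6, 13 and 10.7 CPM in LFD and 168, 206 and 209 CPM in SW, a log2 fold change of 3.53 (SE 0.32, adjusted p = 7.76e-05). Both passed in each fit without 1 library. Atf4 and Ddit3, which drive the core of this response, were at 166, 154 and 163 CPM in LFD and 133, 153 and 175 CPM in SW and at 23.5, 30.2 and 31.8 CPM in LFD and 39.9, 23.8 and 33.8 CPM in SW. Neither was called (adjusted p = 0.758 and 0.594), with 95% intervals of -0.34 to 0.21 and -0.28 to 0.64.

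Immediate early genes, which cells switch on within minutes of a stimulus, rose in 9 of 22 cases and fell in none, and 6 to 11 passed when 1 library was left out. Fos was at 329.5, 155 and 113 CPM in LFD and 616, 1009 and 765 CPM in SW. It rose by 2.0 (SE 0.40, adjusted p = 0.00665) on the log2 scale, library SW-408 being the highest, and the HFD libraries were at 725, 515 and 377 CPM. Socs3, an inhibitor of cytokine signalling, was at 23, 15.6 and 10.2 CPM in LFD and 50.8, 97.0 and 83.8 CPM in SW, a log2 fold change of 2.26 (SE 0.36, adjusted p = 0.00187). Dusp1, a phosphatase, was at 216, 151 and 136 CPM in LFD and 379.8, 579 and 511 CPM in SW, a log2 fold change of 1.55 (SE 0.27, adjusted p = 0.00363). In each of these every SW library was above every LFD library, and LFD-404 was the highest of the lean group. Egr1 was at 215, 140.2 and 89.5 CPM in LFD and 203, 489 and 607 CPM in SW, where library SW-407 lay inside the LFD range, and its call (adjusted p = 0.0411) was lost without LFD-405, LFD-406, SW-408 or SW-409. Jun was at 331, 213 and 175 CPM in LFD and 273, 493 and 482 CPM in SW and was not called (adjusted p = 0.13). The median log2 fold change of this list was 0.84. Its summed level was 1723, 2016 and 2616 CPM in LFD, 3322, 5189 and 5198 CPM in SW and 1877, 2744 and 3320 CPM in HFD libraries, in order of size. The LFD and HFD ranges thus overlapped, and whether the rise was carried over from the high fat period was not tested.

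Of 37 cell cycle genes 15 rose, and every fold change was positive, with a median of 0.77. Pcna, Mcm2, Mcm3 and Mcm5, genes of DNA replication, passed in each fit without 1 library. Pcna, the sliding clamp, was at 84.2, 83.9 and 77.8 CPM in LFD and 272, 188 and 169 CPM in SW, a log2 fold change of 1.35 (SE 0.17, adjusted p = 5.54e-04). Mcm3, of the replicative helicase, was at 13.5, 14.1 and 11.9 CPM in LFD and 29.9, 25.3 and 24.2 CPM in SW, a log2 fold change of 1.00 (SE 0.14, adjusted p = 7.95e-04), and Mcm2 and Mcm5 also rose, by 1.05 and 1.37. For each of them every SW library was above every LFD library. Mki67, the proliferation marker, was at 30.8, 15.9 and 6.99 CPM in LFD and 36.5, 23.1 and 20.2 CPM in SW, and Top2a at 16.5, 9.13 and 3.56 CPM in LFD and 23.7, 16.8 and 16.1 CPM in SW. Both spread widely over the LFD libraries, LFD-404 being the highest, and were not called (adjusted p = 0.38 and 0.114). The count of the list was 25 without LFD-404, 6 without LFD-405, 7 without LFD-406 and 8 without SW-407. The letters CCAAT, which promoters of such genes often hold, were found on either strand before 26 of 31 members with a promoter (83.9%) and 10133 of 27025 genes (37.5%), and before 11 of 14 called and 15 of 17 uncalled members. Among 14 p53 targets and senescence genes 4 rose; Cdkn1a was at 121, 122 and 109 CPM in LFD and 149, 122 and 135 CPM in SW and was not called (adjusted p = 0.38). Of 44 chromatin modifying enzymes 11.4% were called, against 17.1% of all genes. Of these, 4 rose, 2 without LFD-405, and 1 fell, Hdac7, which was lost under adipocyte-rich scaling and without LFD-404, LFD-405 or SW-407. Dnmt3a, a DNA methyltransferase, was at 25.7, 18.5 and 17.5 CPM in LFD and 62.9, 58.5 and 53.6 CPM in SW, a log2 fold change of 1.51 (SE 0.16, adjusted p = 1.68e-04), and Sirt2, a deacetylase, at 54.9, 54.7 and 52.6 CPM in LFD and 83.1, 81.5 and 78.6 CPM in SW, a log2 fold change of 0.58 (SE 0.09, adjusted p = 0.00188). The SW libraries of both were above all LFD libraries. Hdac1 and Hdac3 were not called, with 95% intervals of -0.26 to 0.21 and -0.30 to 0.12. Of 19 genes of the circadian clock 1 rose, Bhlhe41, a repressor, with a log2 fold change of 1.03 (SE 0.17, adjusted p = 0.00209).

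Several of the largest falls were in genes of cells that surround adipocytes. The 15 largest falls chosen by rule also held Alb, Cytl1, Jph2, C6, Amigo2 and Olfr558. The fall of Alb was lost without LFD-405 or SW-408 and under adipocyte-rich scaling. Those of Cytl1, Jph2, C6, Amigo2 and Olfr558 passed in each fit without 1 library and under adipocyte-rich scaling. Of 6 markers of pericytes and smooth muscle 5 fell, all of them in each fit without 1 library and under adipocyte-rich scaling. Acta2, smooth muscle actin, was at 566, 574 and 551 CPM in LFD and 178, 149 and 218 CPM in SW. The SW libraries lay far below the tightly grouped LFD libraries, with a log2 fold change of -1.63 (SE 0.18, adjusted p = 2.04e-04), and -1.25 under adipocyte-rich scaling. Myh11, the smooth muscle myosin, was at 158, 84.6 and 106 CPM in LFD and 19.4, 31.4 and 31.3 CPM in SW, with log2 fold changes of -2.07 (SE 0.30, adjusted p = 0.00116) and -1.70 in that order. Tpm2 and Lmod1, both of the contractile apparatus, were also among the 15 largest falls, with log2 fold changes of -1.80 and -1.71, and -1.38 and -1.35 under adipocyte-rich scaling. The sum over the list was 1864, 2098 and 2158 CPM in LFD and 655, 701 and 775 CPM in SW libraries, in order of size. Cspg4, a pericyte proteoglycan, was at 39.5, 35.6 and 26.6 CPM in LFD and 30.8, 19.6 and 28.8 CPM in SW and was not called (adjusted p = 0.279). Skeletal muscle genes were measured for comparison. Of 4 tested 2 fell: Acta1 was at 42.3, 40.0 and 47.3 CPM in LFD and 16.1, 14.4 and 14.4 CPM in SW and Myh1, at few counts, at 1.43, 2.11 and 1.19 CPM in LFD and 0.210, 0.30 and 0.143 CPM in SW, with log2 fold changes of -1.53 and -2.83, while Mylpf was not called (adjusted p = 0.621). Both falls passed under adipocyte-rich scaling, with -1.14 and -2.48.

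Endothelial markers were also lower. Of 11, 9 fell, with a median log2 fold change of -0.91, but none passed under adipocyte-rich scaling, where the median was -0.54. The count was 2 without LFD-405, SW-407 or SW-408 and 4 without LFD-404 or SW-409. Their summed level was 2914, 3139.9 and 3290.3 CPM in LFD and 1636, 1818 and 1946 CPM in SW libraries, in order of size, and no marker was at 0. Kdr, the main VEGF receptor, was at 278, 227 and 193 CPM in LFD and 76.3, 121 and 126 CPM in SW. All SW libraries were below all LFD libraries, with a log2 fold change of -1.10 (SE 0.29, adjusted p = 0.0253), and -0.74 under adipocyte-rich scaling (adjusted p = 0.0819). Pecam1 was at 473, 489 and 388 CPM in LFD and 204, 248 and 237 CPM in SW, a log2 fold change of -0.97 (SE 0.25, adjusted p = 0.0248), and Egfl7, a matrix protein made by endothelium, at 354, 449 and 364 CPM in LFD and 228, 196 and 235 CPM in SW, a log2 fold change of -0.82 (SE 0.18, adjusted p = 0.00973). Only Egfl7 held in each fit without 1 library. Cldn5, a tight junction protein, was at 556, 641 and 717 CPM in LFD and 447, 472 and 584 CPM in SW and was not called (adjusted p = 0.269). Gja5 and Apln, a connexin of arterial cells and a hormone that endothelium also makes, were among the 15 largest falls, Gja5 with a log2 fold change of -1.66 (SE 0.21, adjusted p = 5.15e-04), and -1.28 under adipocyte-rich scaling (adjusted p = 0.00598). In HFD mice the median endothelial marker was higher in adipocytes than in SVC by 0.97 on the log2 scale. Among angiogenic factors 1 of 11 rose, Hgf, which was lost without LFD-405, LFD-406, SW-408 or SW-409, and 3 fell; Vegfa was at 76.3, 58.4 and 73.7 CPM in LFD and 26.1, 68.1 and 64.7 CPM in SW, library SW-407 being low, and was not called (adjusted p = 0.505). None of the 3 falls passed under adipocyte-rich scaling, and 1 member was lower without LFD-405 or SW-408. Of 12 hypoxia genes 2 rose, 1 without LFD-405, and 3 fell, none of them under adipocyte-rich scaling. Car9, a carbonic anhydrase, rose with a log2 fold change of 3.09 (SE 0.42, adjusted p = 7.48e-04), and Epas1, a hypoxia-inducible factor abundant in endothelium, was at 589, 596 and 577 CPM in LFD and 280.5, 352 and 337 CPM in SW with -0.86 (SE 0.15, adjusted p = 0.00345), and -0.48 and no call under adipocyte-rich scaling. Hif1a was not called (adjusted p = 0.779).

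Of 12 mesothelial and epithelial markers 6 fell and all 12 fold changes were negative, with a median of -1.52. The sum was 115, 192 and 271 CPM in LFD, 32.6, 42.7 and 66.1 CPM in SW and 15, 31.3 and 52.4 CPM in HFD libraries, in order of size. Upk1b, a uroplakin of the mesothelium, was at 21.7, 8.72 and 30.9 CPM in LFD and 1.37, 2.52 and 5.15 CPM in SW, and Krt19, a keratin, at 30.8, 13.5 and 45.9 CPM in LFD and 3.89, 2.52 and 8.94 CPM in SW. No SW library reached the LFD range, but the LFD libraries differed more than 3-fold among themselves, LFD-405 being the lowest. The log2 fold changes were -2.70 (SE 0.59, adjusted p = 0.0107) and -2.53 (SE 0.58, adjusted p = 0.0148), and that of Krt19 was lost without LFD-406 or SW-408. The count was 2 without LFD-406, SW-407 or SW-408, and 4 under adipocyte-rich scaling. Msln, which encodes mesothelin, was at 9.99, 14.0 and 9.76 CPM in LFD and 3.68, 5.47 and 4.65 CPM in SW and was not called (adjusted p = 0.0542). Of 5 red blood cell genes 3 fell, 5 without LFD-404 or SW-407 and 1 without LFD-405, LFD-406, SW-408 or SW-409, and only Alas2 passed under adipocyte-rich scaling. Alas2, an enzyme of haem synthesis, was at 16.5, 15.4 and 17.8 CPM in LFD and 6.10, 6.49 and 6.15 CPM in SW (log2 fold change -1.40, SE 0.16, adjusted p = 2.73e-04, and -1.02 under adipocyte-rich scaling). Markers of the epididymis and pancreas were at or near 0 in these libraries, 1 of 7 and none of 6 passing the filter on low counts, and of 5 testis genes tested Prm2 rose, at 0.951, 0.206 and 0.659 CPM in LFD and 1.16, 5.23 and 4.08 CPM in SW. This call was lost without LFD-405, LFD-406, SW-408 or SW-409, and 2 and 3 of these genes rose without LFD-404 and SW-407.

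Of 26 tested Hox genes, which mark the body position of a tissue, 14 fell and all 26 fold changes were negative, with a median of -0.84. Hoxd8 was at 46.5, 51.1 and 44.6 CPM in LFD and 25, 25.6 and 24.8 CPM in SW. Hoxb8 was at 11.3, 12.7 and 13.7 CPM in LFD and 5.26, 6.01 and 6.37 CPM in SW and Hoxa7 at 25.5, 35.3 and 41.7 CPM in LFD and 18.7, 18.4 and 16.2 CPM in SW. The groups did not overlap in these genes, and the log2 fold changes were -0.92 (SE 0.13, adjusted p = 0.00105), -1.09 (SE 0.16, adjusted p = 0.00103) and -0.95 (SE 0.17, adjusted p = 0.00374). Under adipocyte-rich scaling the median was -0.47 and only Hoxb8 passed, with -0.72 (adjusted p = 0.0222). The count was 6 without LFD-405, 8 without LFD-406 and 5 without SW-408. Hoxc4 and Hoxc5 were not called (adjusted p = 0.367 and 0.0543).

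The growth factor axis of IGF held 3 falls among 11 genes, all of which passed in each fit without 1 library and under adipocyte-rich scaling. Igf2 was at 26.5, 28.1 and 24.5 CPM in LFD and 5.36, 6.91 and 5.79 CPM in SW. The SW libraries were about as low as the HFD libraries at 8.19, 3.59 and 4.25 CPM, and the log2 fold change was -2.12 (SE 0.27, adjusted p = 5.11e-04), or -1.75 under adipocyte-rich scaling. Igfbp3, a binding protein, was at 74.5, 83.1 and 55.8 CPM in LFD and 22.5, 27.3 and 26.1 CPM in SW, a log2 fold change of -1.49 (SE 0.16, adjusted p = 1.87e-04), and Igfbp2 at 9.83, 5.93 and 15.7 CPM in LFD and 2.10, 0.961 and 2.36 CPM in SW, a log2 fold change of -2.54 (SE 0.44, adjusted p = 0.00347). Igf1 was at 196, 214 and 228 CPM in LFD and 284, 223 and 215 CPM in SW and was not called (95% interval -0.13 to 0.49). Of 17 Wnt ligands and antagonists 1 fell, Rspo3, with a log2 fold change of -1.77 (SE 0.43, adjusted p = 0.0193), or -1.43 under adipocyte-rich scaling (adjusted p = 0.0309); it was lost without LFD-405, LFD-406 or SW-409, while 2 of the list passed without SW-407. Of 29 genes of TGF-beta, activin and BMP signalling 3 rose and 3 fell (20.7% called, against 17.1% of all genes). Tgfbr1, a receptor, was at 23, 22.3 and 20.0 CPM in LFD and 40.2, 55.3 and 48.2 CPM in SW, a log2 fold change of 1.14 (SE 0.15, adjusted p = 6.17e-04), and Fst, which binds activin, at 8.56, 7.58 and 7.78 CPM in LFD and 14.3, 18.0 and 14.6 CPM in SW, a log2 fold change of 0.98 (SE 0.19, adjusted p = 0.00636). None of the list was lower under adipocyte-rich scaling or without LFD-404, LFD-405, SW-407 or SW-408, and 1 was without LFD-406.

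Among genes of the extracellular matrix, most calls were of proteases and their inhibitors. Of 24 matrix proteases and inhibitors 10 rose and 1 fell. Mmp2, a gelatinase, was at 43.8, 49.9 and 33.0 CPM in LFD and 158, 139.7 and 130.0 CPM in SW, a log2 fold change of 1.75 (SE 0.20, adjusted p = 2.83e-04). Timp1, an inhibitor of these enzymes, was at 7.93, 7.69 and 3.30 CPM in LFD and 72.4, 33.5 and 33.6 CPM in SW, a log2 fold change of 2.85 (SE 0.38, adjusted p = 6.52e-04). Both had every SW library above every LFD library. None of the list was lower in any fit without 1 library or under adipocyte-rich scaling. Of 32 tested collagens 1 rose (2 without LFD-404), Col3a1, at 1007, 803 and 497 CPM in LFD and 1503, 1462 and 1463 CPM in SW, and its call (adjusted p = 0.0271) was lost without LFD-405, LFD-406, SW-407, SW-408 or SW-409. The HFD libraries held 3838, 3101 and 4152 CPM of Col3a1. Col1a1 was at 271, 235 and 132 CPM in LFD and 362, 316 and 326 CPM in SW, above the LFD range in all SW libraries but not called (adjusted p = 0.112), and Col4a1, of basement membranes, was at 1247, 811 and 637 CPM in LFD and 550.5, 639 and 761 CPM in SW (adjusted p = 0.222). Lum, a proteoglycan that binds collagen, was at 109, 136 and 66.7 CPM in LFD and 342, 308 and 282 CPM in SW, a log2 fold change of 1.58 (SE 0.24, adjusted p = 0.00147). It was counted both with matrix glycoproteins, of which 2 of 16 rose, and with fibroblast markers, of which 2 of 12 rose; without LFD-405, LFD-406, SW-408 or SW-409, 1 rose in each of these lists. Pdgfra, a receptor of progenitors, was at 35.5, 30.9 and 20.6 CPM in LFD and 45.9, 55.5 and 44.9 CPM in SW and was not called (adjusted p = 0.0782).

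**Figure D4:**
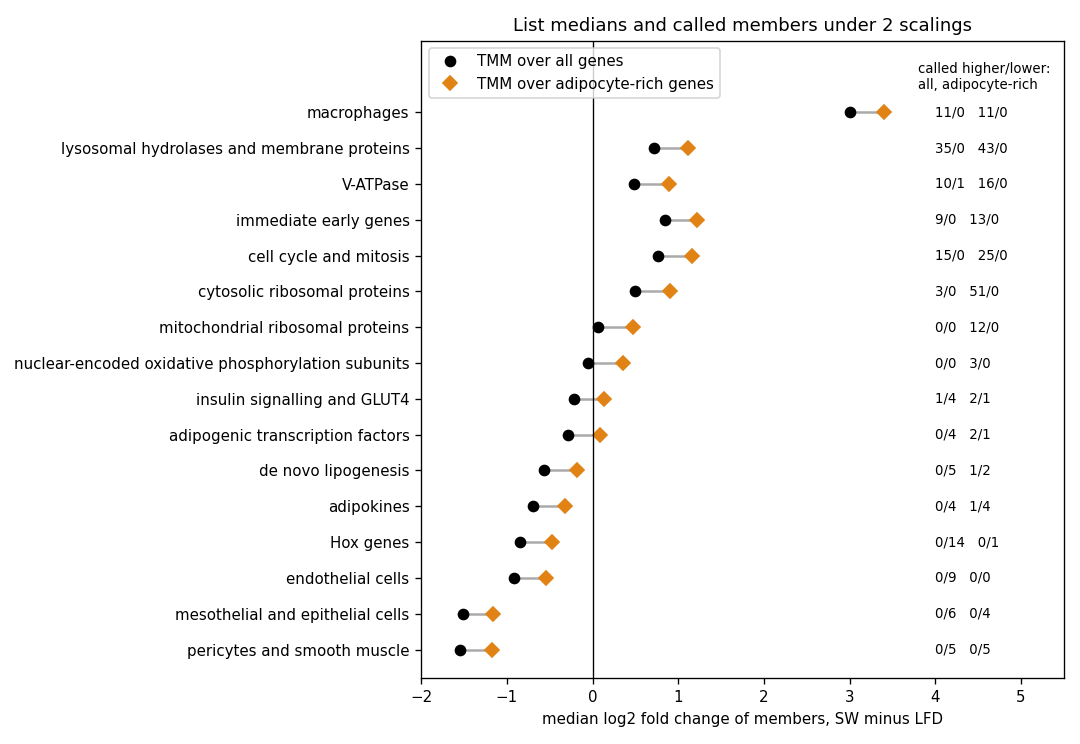
Median log2 fold change (SW minus LFD) of the members of 16 gene lists on the horizontal axis, with TMM factors over all genes (black circles) and over adipocyte-rich genes only (orange diamonds), and the numbers called higher and lower under each at the right. All medians move up under the second scaling, by which rises could hardly be lost. The 9 endothelial falls are no longer called, and the 5 falls of pericytes and smooth muscle remain.

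Genes were also split by where they are more abundant in HFD mice, which uses neither SW nor LFD adipocytes. The 2 HFD libraries of SVC used for this are unlike each other, so each was also used alone. Of 1669 genes higher in HFD adipocytes than in HFD SVC by more than 1 on the log2 scale, 11 were higher in SW than LFD adipocytes (0.66%) and 266 lower (15.9%), with a median log2 fold change of -0.36. Of 1563 genes higher in SVC, 388 were higher (24.8%) and 61 lower (3.90%), with a median of 0.33. The 11229 genes in between held 1175 rises (10.5%) and 567 falls (5.05%), and thus most of the calls in both directions. Under adipocyte-rich scaling, which sets the median of the adipocyte-rich genes near 0 by construction, 99 of them were higher and 78 lower, and 594 of the SVC-rich genes were higher and 28 lower. Without library SW-407, 11 adipocyte-rich genes were higher and 168 lower. The excess of rises among SVC-rich genes depended on the limit. With a limit of 2, 12.3% of 253 SVC-rich genes were higher and 5.93% lower, near the 10.9% and 6.18% of all genes. Of 496 adipocyte-rich genes at that limit, 1.21% were higher and 10.7% lower. The macrophage markers had a median difference of -0.78 between HFD adipocytes and HFD SVC and Emr1 one of -0.31, and most of them lie in the class between.

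**Figure D5:**
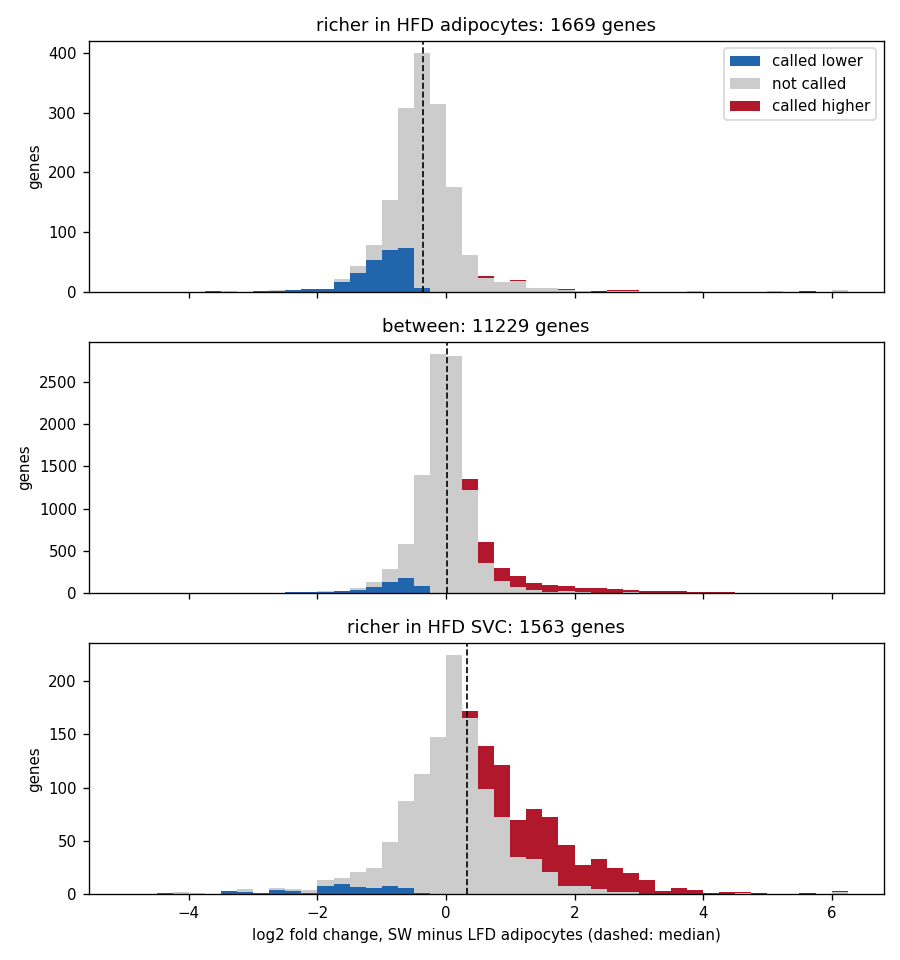
Number of genes on the vertical axis by log2 fold change of SW minus LFD adipocytes on the horizontal axis, for genes richer in HFD adipocytes (1669), between (11229) and richer in HFD SVC (1563), with called falls in blue, called rises in red, other genes in grey and the class median dashed; values beyond the axis are drawn at its ends. At the limit of 1 used here, falls prevail among adipocyte-rich genes (266 against 11) and rises among SVC-rich genes (388 against 61).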

How the data were processed

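Polyadenylated RNA of adipocytes was sequenced after TruSeq library preparation. The authors deposited estimated counts per gene, which per the submitters' processing notes came from Bowtie2 and RSEM on mm9; versions and the annotation release are not given in the sources used here. The values are whole numbers and not normalised. Columns were assigned to diet groups by name, since their numbers do not appear in the labels, and 3 columns of values were not used. The titles of the SW samples name the low fat diet, and the treatment label was used instead.

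The counts of 9 adipocyte libraries were fitted together with edgeR 4.0.16 (robust quasi-likelihood, TMM, filterByExpr with a minimum count of 10), R 4.3.3, and the contrast SW minus LFD was tested with Benjamini-Hochberg adjustment at 0.05. CPM, counts in lists, marker sums and motif matches were computed with Python 3.11.15, and alternatives with limma 3.58.1 and DESeq2 1.42.0. Of 39017 gene identifiers, 37607 were found in GENCODE M21, and 164 symbols had several identifiers. In data simulated for SW against LFD over 14272 genes, 68 of 100 genes changed by 1 on the log2 scale and 97 of 100 changed by 2 were recovered, and 12 of 14072 unchanged genes were called. The changed genes were set equally up and down and above a minimum level. The simulation therefore does not cover shifts of scaling or changed genes of few counts. Intervals and floors cover the spread of counts between libraries only, and depth limits genes of few counts most.

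The 67 lists, their 1356 genes (1288 tested) and the comparison were chosen with earlier results of these data known. Named genes are the 15 largest rises and falls that passed, without overlap, with 4 or more counts in each library and an average level over 3 on the log2 CPM scale, and from each list the first 3 genes, up to 4 with the lowest adjusted p, up to 2 with the largest change and the 2 most abundant uncalled ones, and the 10 most abundant genes. Genes at 0 counts throughout a group are named with at least 10 counts in each library of the other. Genes with near-identical copies, and antisense partners, may share reads. Results for a few genes are not reported here.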

Additional observations from a re-analysis of the deposited data

How the results depend on the processing

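The counts of 2468 genes, 1574 higher and 894 lower, stayed within 1.5 times under limma-voom, limma-trend, DESeq2, RLE and upper-quartile factors, the other filters on low counts, a fit of SW and LFD libraries alone and corrections for GC content and length. Against a 1.5-fold change (glmTreat) 867 genes passed, 737 higher and 130 lower, and after thinning to the smallest library 539 were lower. TMM factors over adipocyte-rich genes, chosen after seeing the data, gave 4092 genes, 3870 higher and 222 lower, and 23 lists with a majority called in place of 15. Leaving out 1 of the 9 adipocyte libraries gave 1678 to 2587 genes, 1108 to 1539 higher and 509 to 1048 lower, and 9 to 16 lists. The lower count was 509 without LFD-405, 570.0 without LFD-406 and 571 without SW-408, and 9 lists were left without LFD-406 and without SW-408. HFD libraries were left out, and lists run under further tools, as alternatives chosen after seeing the data. With a limit of 2 for the split by abundance, 53 of 496 adipocyte-rich genes were lower (10.7%) and 6 higher (1.21%). Of 253 SVC-rich genes, 31 were higher (12.3%) and 15 lower (5.93%), near the shares over all genes of 10.9% and 6.18%. With library SVC-212 alone, 219 of 1245 SVC-rich genes were higher (17.6%) and 39 lower (3.13%). With SVC-411 alone 64 of 2710 adipocyte-rich genes were higher (2.36%). Under adipocyte-rich factors 78 adipocyte-rich genes were lower (4.67%) and 99 higher (5.93%), and 594 SVC-rich genes higher (38.0%) and 28 lower (1.79%). Over all genes these shares were 26.8% higher and 1.54% lower. The causes of these shifts were not tested. No paired analysis was possible because the columns carry numbers that the labels do not give. Depth limits the genes of few counts in the smallest library, LFD-404.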
